A study of Mus musculus with 10 samples.

Results

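The genes described here are 6 gene identifiers of the count files (Exosc9, Cdc23, Lcorl, Paqr4, Kctd18 and Dnah11) and the 4 proliferation genes named as their partners (Ccna2, Kif20a, Ncapg and Pkmyt1), 10 of the 38293 identifiers counted in each library. They were chosen by their shares of gene counts in fibroblasts. The identifiers were low in treated wild-type cells and, apart from Dnah11, not in treated p53-/- cells. Their values in both kinds of fibroblast are therefore given as a description, and no test of them is read as a result. The 6 identifiers were also picked for lying next to or opposite proliferation genes. Of the comparisons, only that in lung played no part in the choice, and it was tested. An identifier is the gene name under which reads were listed. The strand setting of the counting is not given. Whether those reads came from that gene or from the gene on the other strand therefore cannot be told apart in these files. No level below is read as the expression of the gene named.

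RNA of mouse embryonic fibroblasts (MEF) and of whole lung was sequenced in 10 libraries with a total RNA kit that removes ribosomal RNA and keeps the strand. Wild-type MEF were C57BL/6J cells, left untreated (n = 2) or given 1 µM CBL0137 for 24 h (n = 2). p53-/- MEF came from Trp53tm1Tyj mice and were left untreated (n = 1) or given 1 µM CBL0137 for 24 h (n = 1). Lungs came from NIH Swiss mice 7 weeks old that had received 5% dextrose, the vehicle (n = 2), or 60 mg/kg CBL0137 (n = 2), both intravenously, 24 h before collection. The methods describe MEF as passaged primary cells, with each embryo plated on its own. The labels give neither the embryo nor the mouse behind a library, and they disagree with the series' design text on the sex of the lung mice (female against male). The methods speak of biological replicates, but p-values here measure only the spread between the libraries. CBL0137 is a curaxin, a small molecule that intercalates into DNA and loosens nucleosomes without cutting the strands.

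Fibroblasts that divide in culture express a shared set of genes for DNA replication and mitosis. When p53 is active, it induces the CDK inhibitor p21. The DREAM complex then represses many of these genes through a short promoter element, the cell cycle homology region (CHR), and through E2F sites. Cells without p53 lack this route of repression. Ccna2 encodes cyclin A2, Kif20a a kinesin of the mitotic spindle midzone, Ncapg a subunit of the condensin I complex that compacts mitotic chromosomes, and Pkmyt1 a kinase that holds CDK1 inactive until mitosis. The identifiers have other roles. Exosc9 encodes a subunit of the RNA exosome, Cdc23 a subunit of the anaphase-promoting complex, Lcorl a relative of the nuclear receptor corepressor LCoR, Paqr4 a membrane protein of the progestin and adipoQ receptor family, Kctd18 a protein with a BTB domain, and Dnah11 an axonemal dynein heavy chain of motile cilia.

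In the GENCODE M21 annotation of GRCm38, each of the 6 identifiers had exon bases that lay on the opposite strand of exons of exactly 1 other gene. In all 6 pairs that gene was a proliferation gene. Since the identifiers were picked for such neighbours, this describes the choice and is not a finding about them. Exosc9 (ENSMUSG00000027714, chr3:36552606-36565727, + strand) shared 510 exon bases with Ccna2 (ENSMUSG00000027715, chr3:36564865-36572150, - strand), and 156 of them were coding for Exosc9 and none for Ccna2. Cdc23 (ENSMUSG00000024370, chr18:34630951-34651735, - strand) shared 1271 exon bases with Kif20a (ENSMUSG00000003779, chr18:34624613-34633277, + strand). Lcorl (ENSMUSG00000015882, chr5:45697181-45857615, - strand) shared 944 with Ncapg (ENSMUSG00000015880, chr5:45669919-45700546, + strand). Paqr4 (ENSMUSG00000023909, chr17:23736186-23740867, - strand) shared 319 with Pkmyt1 (ENSMUSG00000023908, chr17:23726336-23736735, + strand). In these pairs the 3' ends of both genes faced each other and ran past one another.

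The other two identifiers had partners that were not among the named genes. Dnah11 (ENSMUSG00000018581, chr12:117877982-118199043, - strand) shared 642 exon bases, also at the 3' ends, with Cdca7l (ENSMUSG00000021175, chr12:117804289-117878706, + strand), a relative of the MYC target Cdca7. Kctd18 (ENSMUSG00000054770, chr1:57955101-58018956, - strand) shared 2455 exon bases with Sgo2a (ENSMUSG00000026039, chr1:57995971-58025899, + strand), a shugoshin that protects cohesin at centromeres. This pair was arranged differently. Only 1 of the 11 annotated Kctd18 transcripts, of the nonsense-mediated decay type, reached Sgo2a, and all 2455 shared bases were coding sequence of Sgo2a. The shared bases made up between 4.44% of the exon bases (Dnah11) and 18.9% (Kctd18), so most exon sequence of every identifier lay outside the overlap.

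**Figure D1:**
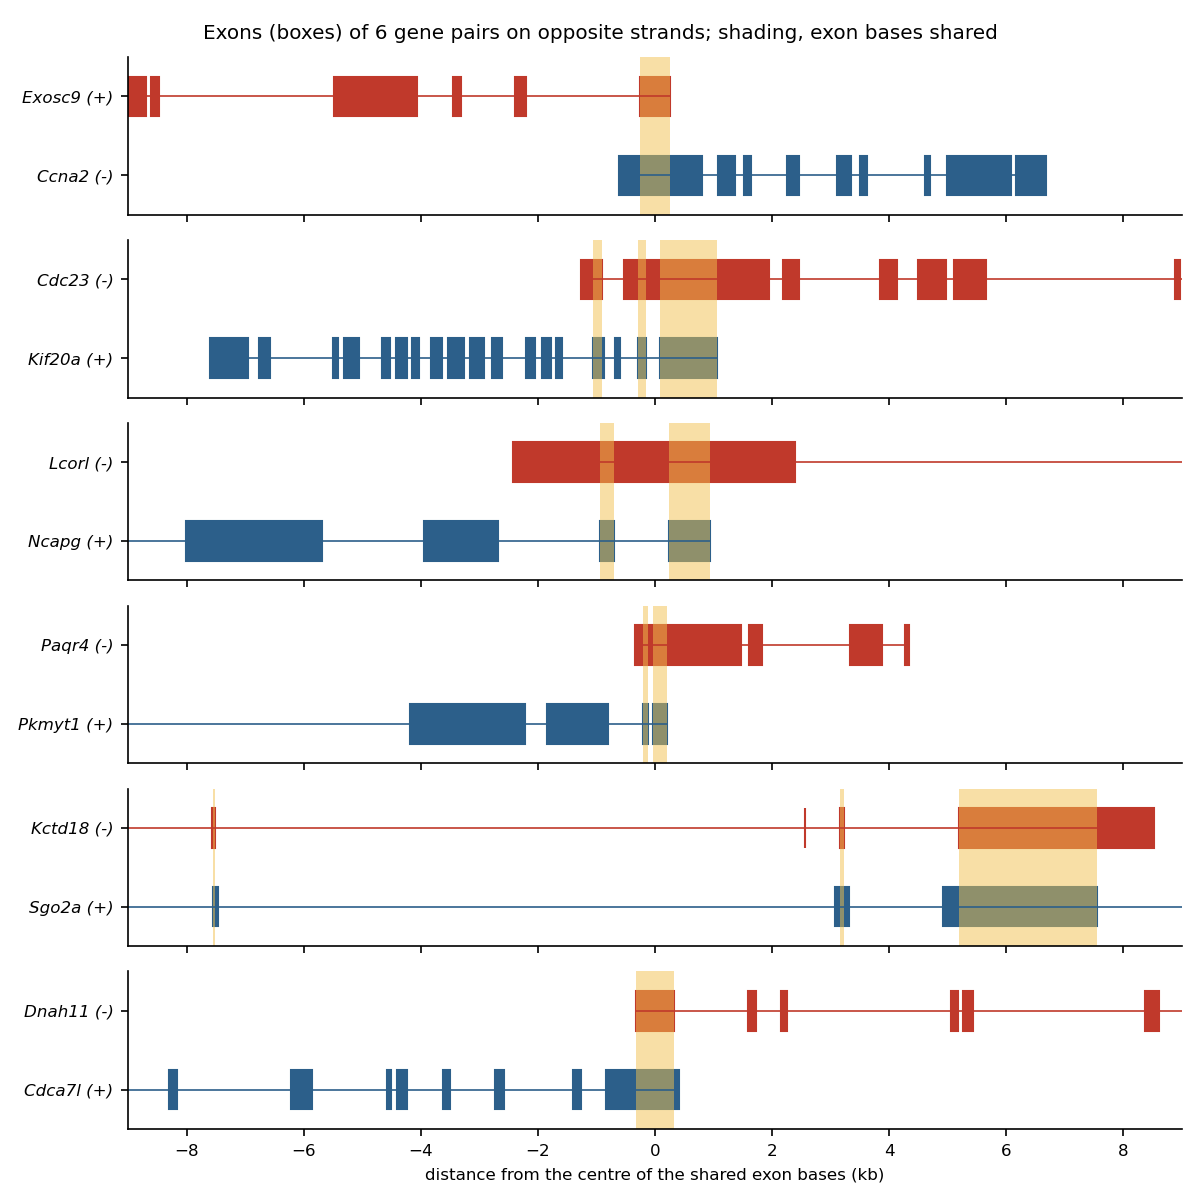
Exons (boxes) of the 6 identifiers (red) and of the genes on the other strand (blue), drawn to scale against the distance in kb from the centre of the shared exon bases, with strand in brackets and shared exon bases shaded. The shared bases lie at the 3' ends of both genes in 5 pairs, and inside Sgo2a in the Kctd18 pair, where the 2455 shared bases are spread over several exons.

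The promoters of the pairs were searched for the CHR, an E2F-like motif and the CCAAT box. Whether any of these had a part in the values of the identifiers was not tested. RefSeq promoters of GRCm38.p6 were matched for 7 of the 12 genes of the pairs, and 6 of these, all but Dnah11, held at least 1 of the searched elements in a window. The 5 windows shown hold them in both genes of the Ncapg and Lcorl pair, in both genes of the Kctd18 and Sgo2a pair, and in Paqr4. Each runs from 250 bases before to 30 bases after an annotated start, on the strand of its gene. Capitals mark the CHR (TTTGAA), the CCAAT box (CCAAT) and an E2F-like motif (TTTNGCGC), each searched on both strands. Ncapg is a named partner, Sgo2a is the gene opposite Kctd18, and Lcorl, Kctd18 and Paqr4 are identifiers.
Ncapg, chr5:45669675-45669954, + strand: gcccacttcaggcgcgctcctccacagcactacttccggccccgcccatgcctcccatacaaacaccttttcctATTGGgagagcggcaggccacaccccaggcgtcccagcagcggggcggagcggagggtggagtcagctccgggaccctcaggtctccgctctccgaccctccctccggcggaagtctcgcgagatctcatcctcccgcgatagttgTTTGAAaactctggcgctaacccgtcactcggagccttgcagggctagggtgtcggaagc
Lcorl, chr5:45856523-45856802, - strand: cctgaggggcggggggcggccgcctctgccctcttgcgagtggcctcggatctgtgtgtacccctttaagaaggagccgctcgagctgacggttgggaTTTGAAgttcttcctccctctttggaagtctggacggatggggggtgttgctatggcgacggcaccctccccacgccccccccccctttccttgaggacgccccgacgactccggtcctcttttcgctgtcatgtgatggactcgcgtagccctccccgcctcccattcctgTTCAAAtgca
Sgo2a, chr1:57995724-57996003, + strand: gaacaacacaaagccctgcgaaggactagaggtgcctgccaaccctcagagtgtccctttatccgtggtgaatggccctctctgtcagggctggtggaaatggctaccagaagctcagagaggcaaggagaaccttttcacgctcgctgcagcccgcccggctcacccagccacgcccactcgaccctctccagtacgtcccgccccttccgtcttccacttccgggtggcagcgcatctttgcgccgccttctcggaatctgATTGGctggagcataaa
Kctd18, chr1:57970055-57970334, - strand: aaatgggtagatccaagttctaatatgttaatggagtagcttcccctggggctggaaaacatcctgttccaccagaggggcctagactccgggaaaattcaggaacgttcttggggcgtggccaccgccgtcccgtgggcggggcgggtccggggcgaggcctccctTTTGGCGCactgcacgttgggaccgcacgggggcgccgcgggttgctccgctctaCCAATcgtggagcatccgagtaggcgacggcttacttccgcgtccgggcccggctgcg
Paqr4, chr17:23740301-23740580, - strand: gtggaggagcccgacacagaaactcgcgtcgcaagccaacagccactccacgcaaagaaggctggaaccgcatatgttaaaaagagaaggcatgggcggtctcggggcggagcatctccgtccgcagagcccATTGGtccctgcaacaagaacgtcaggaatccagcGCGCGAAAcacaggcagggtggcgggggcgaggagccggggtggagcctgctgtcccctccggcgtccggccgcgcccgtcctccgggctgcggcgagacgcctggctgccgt
The Ncapg promoter held a CHR on its own strand and a CCAAT box on the other strand. The Lcorl window held a CHR on each strand. The Sgo2a window held a CCAAT box in its last bases, and the Kctd18 and Paqr4 windows each held a CCAAT box and an E2F-like motif. Of the windows not shown, that of Cdca7l and a second start of Sgo2a held a CCAAT box, and that of Dnah11 and a second start of Kctd18 and of Lcorl held none of the 3. Of all 32851 promoter windows of this length, 17.2% held a CHR, 36.1% a CCAAT box and 1.28% the E2F-like motif. The share with at least 1 of the 3 was not counted, and some genes had more than 1 window. The number of genes with a match is therefore not read as an excess. The matches are letters in a window and no evidence of binding.

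The files listed between 1458258 and 51320983 reads a library, of which only 0.789% to 1.16% were counted on genes (16579 to 538717 gene counts) and 98.8% to 99.2% were listed as lying on no gene. Values below are the share of an identifier in the gene counts of its library, in counts per 1000000 gene counts (CPM), with exact 95% intervals for counting error where single libraries are compared. Reads are not independent molecules, so the intervals cover counting error only. The shallowest library, vehicle lung 2, had 16579 gene counts, and 3 counts there are worth 181 CPM. Identifiers with exon bases opposite another exon were 19.8% of the annotated identifiers. They had 29.9% of the exon bases and held 72.8% of the gene counts. Whether the strand used in counting had a part in this was not tested. Trp53, the deleted gene, was at 0 in both untreated and both treated wild-type libraries and in untreated p53-/- MEF, and had 5 counts in treated p53-/- MEF, so the deletion could not be checked from the counts. Of the fibroblast markers Col1a1 had 19 and 43 counts in untreated wild-type MEF and Pdgfra 1 and 0, and Sftpc, the surfactant gene of lung epithelium, had 7 to 60 counts in the lung libraries and at most 1 in MEF. The summed level of the 10 fibroblast markers was 656 to 1063 CPM in untreated and 266 to 429 CPM in treated wild-type MEF. Its part in the values below was not tested.

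In wild-type MEF all 6 identifiers were lower in both CBL0137 libraries than in both untreated libraries, by 13.7-fold to 34.7-fold for the 4 that kept counts. Exosc9 had 831 and 823 CPM in the untreated libraries and 14.8 and 32.8 CPM after CBL0137. The mean level fell from 827 ± 5.78 to 23.8 ± 12.7 CPM (SD, n = 2 each), 34.7-fold lower. Kctd18, the most abundant of the 6, had 1356 and 1521 CPM untreated and 44.4 and 72.9 CPM treated, 24.5-fold lower on the mean. These 4 libraries split without overlap at both identifiers, and the treated values rested on 1 and 9 counts of Exosc9 and on 3 and 20 counts of Kctd18. Cdc23 had 1327 and 1505 CPM untreated and 29.6 and 109 CPM treated, 20.4-fold lower. Lcorl had 423 and 479 CPM untreated and 29.6 and 36.5 CPM treated, 13.7-fold lower. The treated libraries differed most from each other at Cdc23, where the second, deeper one held more.

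The 2 identifiers with low levels were no longer counted after treatment. Paqr4 had 14 and 17 counts untreated (102 and 88.6 CPM) and 0 counts in both treated libraries. Against a floor of 3 counts over the treated group, Paqr4 was at least 10.7-fold lower. Dnah11 had 13 and 19 counts untreated (94.8 and 99.0 CPM) and 0 counts in both treated libraries, at least 11.1-fold lower by the same floor. Both bounds are below the falls of the other 4 identifiers because 31 and 32 untreated counts leave no room for a larger one. Over all identifiers tested in wild-type MEF, 4.27% were called lower with edgeR's quasi-likelihood test (75 of 1757), 4.21% higher (74) and 8.48% in either direction. Since this contrast chose the members, no count of members is read against these shares.

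Of the named partners, Ccna2 was higher after CBL0137, Kif20a was close to its untreated level and Ncapg was lower. Ccna2 had 394 and 438 CPM untreated and 666 and 820 CPM treated, 1.79 times the untreated mean, with no overlap between the groups. Kif20a had 540 and 521 CPM untreated and 459 and 499 CPM treated, a ratio of 0.904. Ncapg had 109 and 104 CPM untreated and 0 and 40.1 CPM treated, 5.33-fold lower on the means, in the same direction as Lcorl, and this rested on 0 and 11 treated counts. Pkmyt1 had 0 and 1 counts untreated and 0 in both treated libraries, below the floor of 3 counts, so no ratio is given. The genes opposite Kctd18 and Dnah11 were also at or near 0 in wild-type MEF, with no count of Sgo2a in the 4 libraries and 1 of Cdca7l. Ccna2 was thus higher after CBL0137 under its own identifier, while the identifier across from it was lower.

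**Figure D2:**
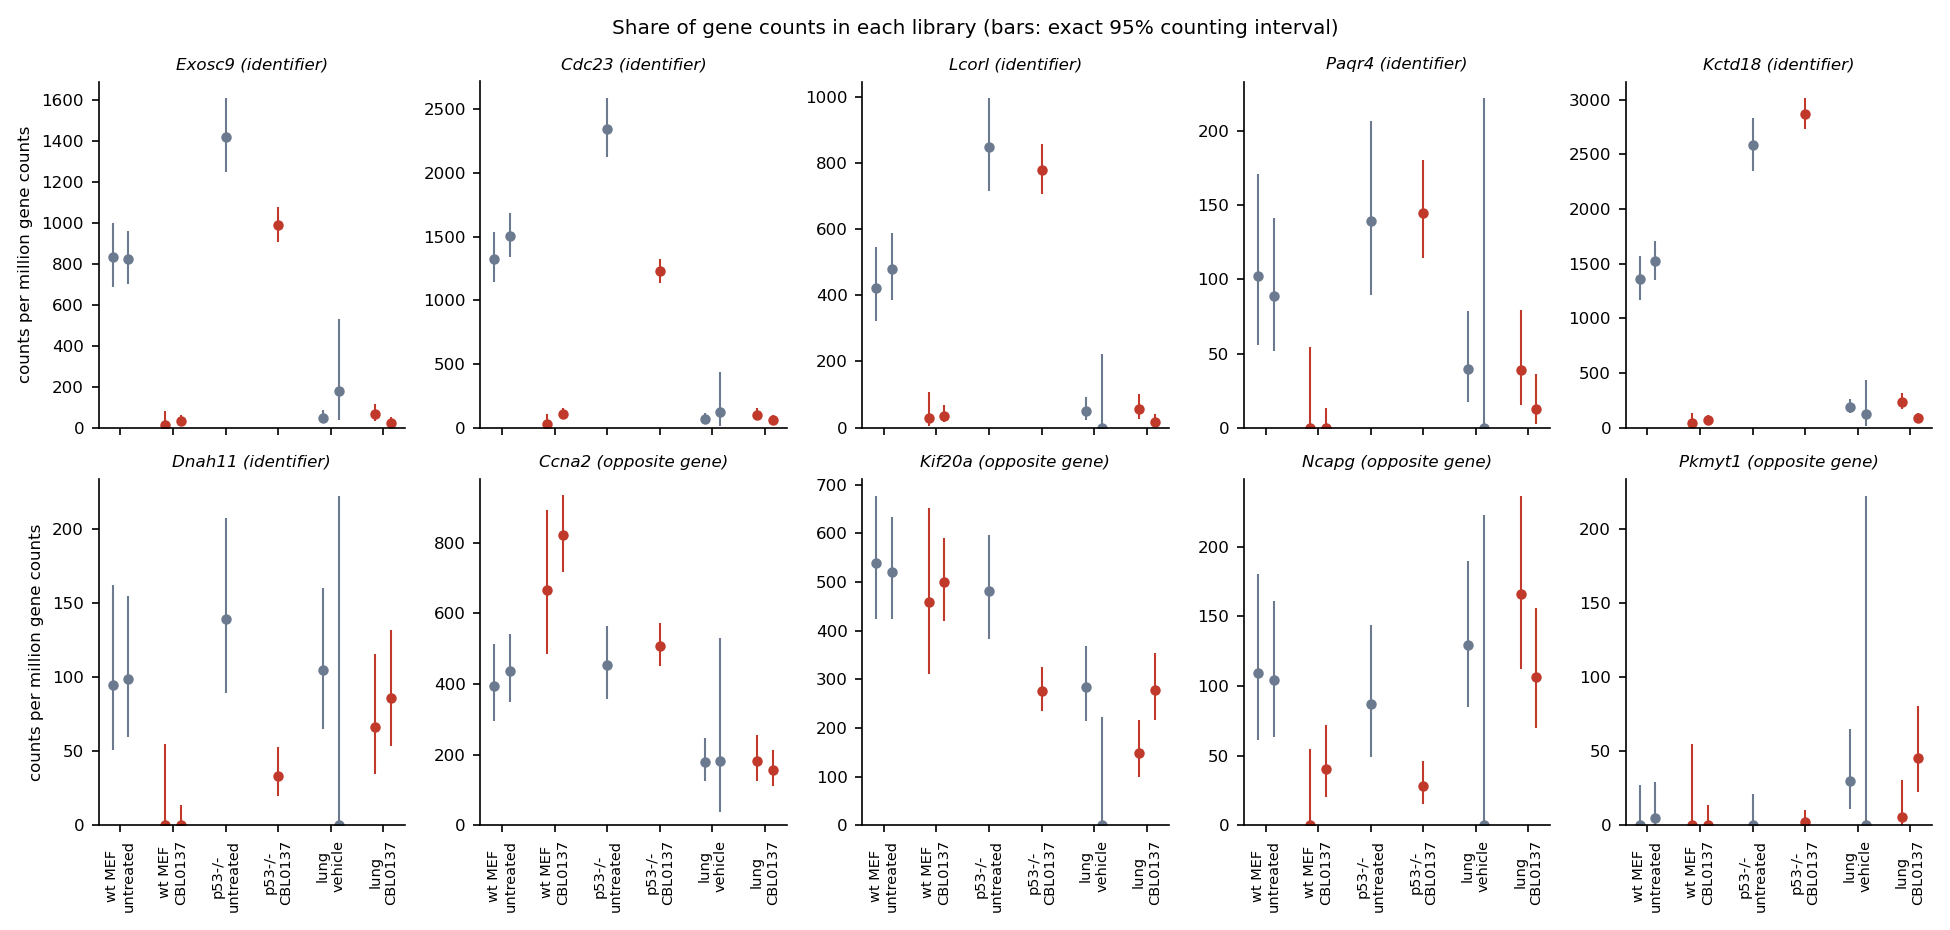
Share of gene counts (CPM, linear axes from 0) of the 6 identifiers and 4 opposite genes in each of the 10 libraries, grey for untreated or vehicle and red for CBL0137, with exact 95% counting intervals. The identifiers stand high in untreated wild-type MEF (Kctd18 1356 and 1521 CPM), near 0 in treated wild-type MEF and high again in both p53-/- libraries except for Dnah11, which has 33.4 CPM in the treated one, while Ccna2 and Kif20a keep counts in all MEF libraries.

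Per kb of annotated exon, the levels of the identifiers in untreated wild-type MEF were in the order Exosc9 (176 CPM per kb, mean of 2), Cdc23 (149), Kctd18 (111), Paqr4 (36.1), Lcorl (23.9) and Dnah11 (6.70). On the same scale Kif20a had 122, Ccna2 102 and Ncapg 15.1 CPM per kb. Exosc9 and Cdc23 were neighbours whose libraries did not overlap (177 and 175 against 140 and 158), and the libraries of Kctd18 (105 and 117) overlapped with those of Ccna2 (96.4 and 107). Because the reads may stem from a part of the exons only, these levels per length are rough.

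In p53-/- MEF, 5 of the 6 identifiers kept 145 CPM or more after CBL0137, and Dnah11 had 33.4 CPM. Kctd18 had 2581 CPM untreated (445 counts) and 2870 CPM treated (1546 counts), a log2 ratio of 0.15 with a counting interval of -0.00028 to 0.31. Paqr4 had 139 and 145 CPM, a log2 ratio of 0.06 (-0.62 to 0.78), and Lcorl had 847 and 778 CPM, a log2 ratio of -0.12 (-0.40 to 0.16). These 3 intervals reached 0. The lower bound for Lcorl, a log2 ratio of -0.40, can be set beside the 13.7-fold lower mean in wild-type MEF. Exosc9 had 1421 CPM untreated and 991 CPM treated, a log2 ratio of -0.52 (-0.74 to -0.30). Cdc23 had 2349 and 1229 CPM, a log2 ratio of -0.93 (-1.12 to -0.75). Dnah11 had 139 and 33.4 CPM on 24 and 18 counts, a log2 ratio of -2.06 (-3.03 to -1.12). For these 3 the interval lay below 0, and for each of them the ratio was still smaller in size than the fall or bound in wild-type MEF.

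Each p53-/- treatment had 1 library, so the intervals hold for these libraries and not for the genotype. The scale mattered here. The treated p53-/- library had 1.05% of its reads on genes and the untreated one 0.789%, so that with all reads of the file as library size every log2 ratio rose by 0.41, Lcorl turned to 0.29 and the median of the 6 identifiers moved from -0.32 to 0.09. Over the 2275 identifiers with at least 30 counts in the pair and a count in both, the median log2 ratio was 0.16, with a middle range (quartiles) of -0.46 to 0.91. At least 1.5 times lower shares were seen in 20.1% of the 2332 identifiers with 30 counts, and among the 6 identifiers in Cdc23 and Dnah11. At least 1.5 times higher shares were seen in 35.6% of them and in none of the 6. This comparison, too, was used to choose the members.

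Of the partners in p53-/- MEF, Kif20a and Ncapg had lower shares after CBL0137. Ccna2 had 452 and 509 CPM, a log2 ratio of 0.17 (-0.20 to 0.55). Kif20a had 481 CPM untreated and 277 CPM treated, a log2 ratio of -0.80 (-1.20 to -0.39), and Ncapg had 15 counts in each library, 87.0 and 27.8 CPM, a log2 ratio of -1.64 (-2.78 to -0.51). The ratio of Kif20a was close to that of Cdc23 on the other strand (-0.93), whereas Ncapg and Lcorl (-0.12) lay apart.

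Without drug, the share of every identifier was higher in the p53-/- library than in both wild-type libraries. The ratio to the wild-type mean was 1.88 for Lcorl, 1.79 for Kctd18, 1.72 for Exosc9, 1.66 for Cdc23, 1.46 for Paqr4 and 1.44 for Dnah11. For the partners it was 1.09 (Ccna2), 0.908 (Kif20a) and 0.815 (Ncapg). With all reads as library size the same ratios were 1.56, 1.49, 1.44, 1.38, 1.24 and 1.20 for the identifiers, and 0.904, 0.762 and 0.685 for the partners. After CBL0137 the distance was larger, and the p53-/- library held 48.9 times the wild-type mean of Kctd18, 41.6 times that of Exosc9, 23.6 times that of Lcorl and 17.7 times that of Cdc23. With 1 library a treatment, genotype and embryo cannot be told apart.

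**Figure D3:**
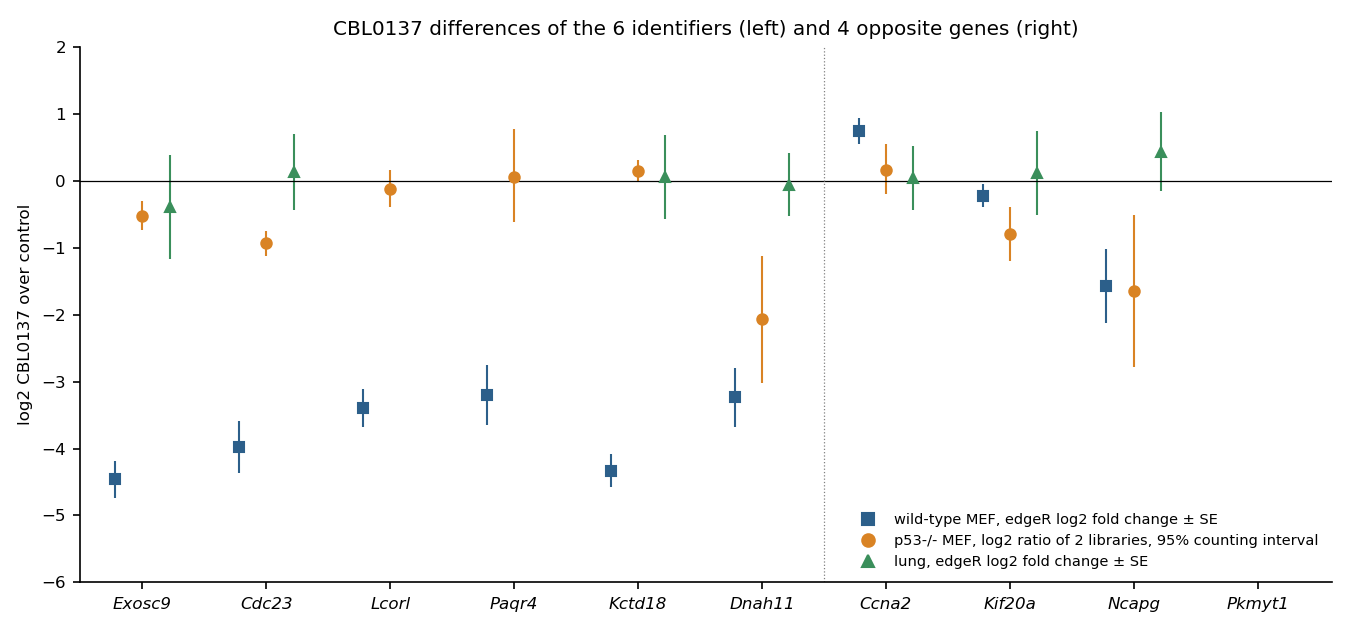
Log2 difference (CBL0137 over control) of the 6 identifiers, left of the dotted line, and the 4 partners, right of it, with edgeR log2 fold changes ± SE in wild-type MEF (2 against 2) and lung (2 against 2), and plain log2 ratios with 95% counting intervals in p53-/- MEF (1 against 1). The identifiers lie at -3.20 or lower in wild-type MEF, where Paqr4 and Dnah11 have no treated counts and their position depends on the prior count, and between -2.06 and 0.15 in p53-/- MEF. Members without a symbol did not pass the filter or had a library at 0.

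The genotypes were also set side by side in a fit of the interaction of genotype and CBL0137 over all identifiers in the 6 MEF libraries, where only the wild-type groups had replicates to give the spread. Of 2995 identifiers 0.1% were called (3), all of them higher in p53-/- MEF relative to wild-type MEF after treatment, and these were Kctd18, Exosc9 and Lcorl (log2 interaction values of 4.56, 4.07 and 3.38). Paqr4 (3.68), Cdc23 (3.10) and Dnah11 (1.85) were in the same fit and were not called. As this contrast is the one by which the members were proposed, the calls describe the choice and do not add support for it.

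The counts within a pair give a view that does not depend on library size. In untreated wild-type MEF, Exosc9 held 67.9% and 65.3% of the counts of Exosc9 and Ccna2 together, and after CBL0137 2.17% (95% exact binomial interval 0.055% to 11.5%) and 3.85% (1.77% to 7.18%). In p53-/- MEF it held 75.9% untreated (70.8% to 80.4%) and 66.1% treated (62.7% to 69.4%). The switch from the majority to a small minority of the pair was thus seen in the wild-type libraries, and the p53-/- pair stayed on the side of Exosc9. Cdc23 held 71.1% and 74.3% of its pair with Kif20a in untreated wild-type MEF and 6.06% and 18.0% after treatment. In p53-/- MEF the same share was 83.0% (79.4% to 86.2%) and 81.6% (78.8% to 84.2%), with overlapping intervals. Lcorl held 79.5% and 82.1% of its pair with Ncapg untreated. The treated wild-type pairs had only 2 and 21 counts, which gave 100% and 47.6% (25.7% to 70.2%), so no shift could be read in the shallower library. In p53-/- MEF Lcorl went from 90.7% (85.1% to 94.7%) to 96.5% (94.4% to 98.1%).

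**Figure D4:**
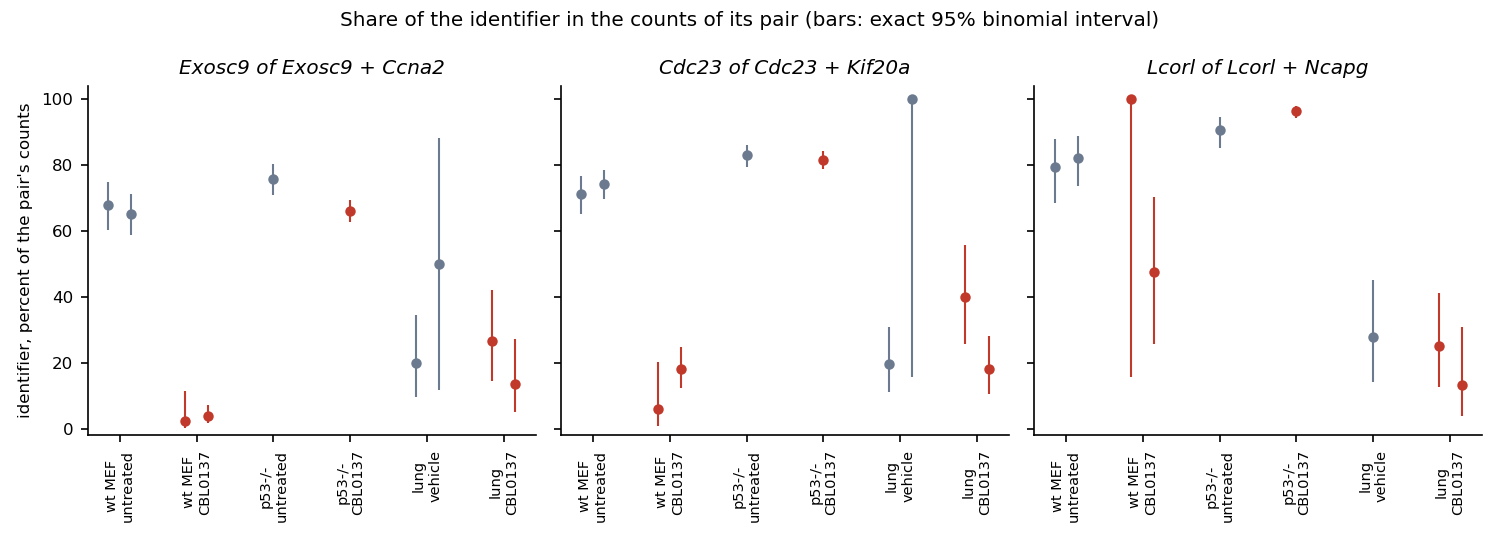
Share of the identifier in the summed counts of its pair, in percent, for Exosc9 with Ccna2, Cdc23 with Kif20a and Lcorl with Ncapg in each library, with exact 95% binomial intervals. Exosc9 drops from 67.9% and 65.3% to 2.17% and 3.85% in wild-type MEF and stays at 66.1% or above in p53-/- MEF. Vehicle lung 2 has 2 to 6 counts in a pair or none, and treated wild-type MEF 1 has 2 counts in the Lcorl pair.

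In the other 3 pairs nearly all counts in MEF lay on the identifier. Kctd18 held every count of its pair with Sgo2a in the 4 wild-type libraries, also after treatment, on 186, 292, 3 and 20 counts. Treated p53-/- MEF had 1546 counts of Kctd18 and 3 of Sgo2a (99.8%). Paqr4 held 14 of 14 and 17 of 18 counts in untreated wild-type MEF and 78 of 79 in treated p53-/- MEF. Dnah11 held 13 of 13 and 19 of 19 in untreated wild-type MEF, 24 of 24 and 18 of 18 in p53-/- MEF, where 1 count of Cdca7l in treated wild-type MEF 1 was the only other one. In lung the shares were lower. Dnah11 held 21 of 35 counts in vehicle lung 1 and 12 of 16 and 21 of 44 after CBL0137, and Paqr4 held 8 of 14, 7 of 8 and 3 of 14.

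In whole lung the identifiers were low in both groups and no difference was detectable. Exosc9 had 44.8 and 181 CPM after vehicle, the latter on 3 counts, and 66.3 and 24.6 CPM after CBL0137. Kctd18 had 189 and 121 CPM after vehicle and 238 and 90.2 CPM after CBL0137. The groups overlapped at all 10 members. Cdc23 had 69.7 and 121 CPM after vehicle and 99.4 and 61.5 CPM after CBL0137, and Dnah11 had 105 and 0 CPM after vehicle and 66.3 and 86.1 CPM after CBL0137. Lcorl (10 and 0 counts against 10 and 4) and Paqr4 (8 and 0 against 7 and 3) did not pass the filter on low counts, nor did Pkmyt1 (6 and 0 against 1 and 11). Ccna2 had 179 and 181 CPM after vehicle and 182 and 156 CPM after CBL0137.

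With edgeR's quasi-likelihood test 0% of 2377 identifiers were called in lung, 74 had an unadjusted p below 0.05, and DESeq2 called 0 as well. Of the 10 members, 7 passed the filter, none was called or had an unadjusted p below 0.05 with either tool, and their adjusted p was 1. The log2 fold change of Exosc9 was -0.39 ± 0.78 (SE; 95% interval -2.06 to 1.27) and that of Kctd18 0.06 ± 0.62 (-1.27 to 1.38). For Cdc23 it was 0.14 ± 0.57 (-1.08 to 1.35) and for Dnah11 -0.06 ± 0.47 (-1.07 to 0.95). Kif20a (0.12, -1.23 to 1.46), Ncapg (0.44, -0.83 to 1.70) and Ccna2 (0.04, -0.99 to 1.08) had intervals of like width. A fall of the size seen in wild-type MEF lay outside the lung intervals of Exosc9, Cdc23, Kctd18 and Dnah11, while a smaller fall within those intervals could not be told from none. The vehicle means of Exosc9, Cdc23 and Kctd18 were already low (113, 95.2 and 155 CPM, on 12, 16 and 40 counts). Treated wild-type MEF had 23.8, 69.5 and 58.7 CPM. With so little room to fall, the intervals do not show that lung and MEF responded differently. Without vehicle lung 2 the values were 0.10 for Exosc9, -0.08 for Kctd18, 0.27 for Cdc23 and -0.32 for Dnah11, with adjusted p = 1.00 each in edgeR. In bulk lung, fewer expressing cells and less RNA per cell cannot be told apart. The identifiers had 18.4 (Exosc9), 20.3 (Cdc23), 9.06 (Lcorl), 7.60 (Kctd18), 2.39 (Paqr4) and 0.926 (Dnah11) times the share of vehicle lung 1 in untreated wild-type MEF. The same ratio was 2.32 for Ccna2, 1.87 for Kif20a and 0.824 for Ncapg, so Paqr4 and Dnah11 lay within the range of the partners or close to it.

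The wider question was whether other identifiers opposite cell-cycle genes moved in the same way. Lists of 109 genes of G2 and mitosis and 92 genes of G1/S and DNA replication were searched for identifiers with at least 1 exon base on the other strand. Leaving out the members, 48 identifiers were found, and 11 of them passed the filter in wild-type MEF. Of the 11, 4 fell, 1 rose and 6 were not called (edgeR, adjusted over all 1757 identifiers tested). The share that fell was 36.4% against 4.27% of all identifiers. Several of the 11 (Pdzd11, Zfp276 and Polg among them) had at most 4 counts in each treated library and passed the filter through the untreated group, so the share is not read as support for a common fall. Without the filter 6 of 41 fell, 14.6%, against 0.648% of all 13583 identifiers. Most of the 13583 had too few counts to pass the filter, so this background is low from the start. The gene lists were also made with earlier results of these data known, and this share, too, is not read as support. DESeq2 called 4 of the 11, and with untreated replicate 1 or 2 left out none was called.

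The 4 that fell were the following. Pdzd11 (ENSMUSG00000015668, chrX:100622883-100626568), opposite Kif4, a chromosome-associated kinesin, had 204 and 214 CPM untreated and 29.6 and 3.65 CPM treated. Its log2 fold change was -3.41 ± 0.53 (edgeR, adjusted p = 0.0234). Zfp276 (ENSMUSG00000001065, chr8:123254195-123269745), opposite Fanca of the Fanconi anaemia repair pathway, had 175 and 135 CPM untreated and 0 and 10.9 CPM treated, and its log2 fold change was -3.08 ± 0.46 (edgeR, adjusted p = 0.0227). Ubxn6 (ENSMUSG00000019578, chr17:56067045-56075028), opposite the chromatin assembly factor gene Chaf1a, had 394 and 542 CPM untreated and 104 and 124 CPM treated, a log2 fold change of -1.99 ± 0.28 (edgeR, adjusted p = 0.0196). Gm10143 (ENSMUSG00000064032, chr19:10198368-10202384), opposite the flap endonuclease gene Fen1, had 1407 and 1636 CPM untreated and 547 and 536 CPM treated, a log2 fold change of -1.56 ± 0.17 (edgeR, adjusted p = 0.00937). In all 4 the untreated and treated libraries did not overlap. The falls were smaller than those of Exosc9 and Kctd18, and the level of Zfp276 and Pdzd11 after treatment rested on at most 3 counts a library.

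The 1 that rose was LTO1 (ENSMUSG00000031072, chr7:144915100-144931701), opposite Ccnd1, which encodes cyclin D1. It had 4914 and 4761 CPM untreated and 8685 and 9315 CPM treated, a log2 fold change of 0.81 ± 0.14 (edgeR, adjusted p = 0.0276). It was not called with DESeq2, with all reads as library size, without the filter, with all 10 libraries in one fit or without untreated replicate 1 or 2 (highest adjusted p = 0.451, edgeR). The 6 not called had log2 fold changes of -2.45 (Polg opposite Fanci), -1.67 (Gse1 opposite Gins2), -1.66 (Lctl opposite Zwilch), -1.31 (Gm11491 opposite Ska2), -1.06 (Son opposite Donson) and -0.42 (Eif4a2 opposite Rfc4). By list, 1 of 3 tested identifiers opposite genes of G2 and mitosis fell, and 3 of 8 opposite genes of G1/S and DNA replication fell and 1 rose.

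**Figure D5:**
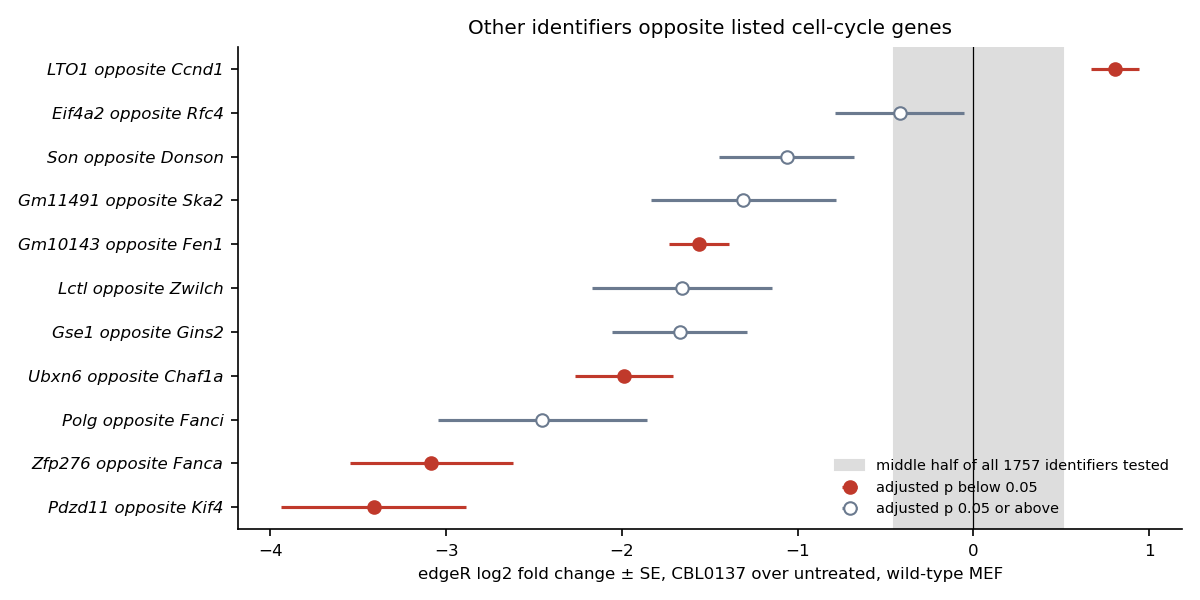
Log2 fold change ± SE (edgeR, CBL0137 over untreated, 2 against 2 wild-type MEF libraries) of the 11 tested identifiers opposite listed cell-cycle genes, members left out, with filled symbols for adjusted p below 0.05 and the quartile range of all 1757 identifiers shaded. All but LTO1 (0.81) lie below 0, and Pdzd11 lies lowest at -3.41.

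In p53-/- MEF, 6 of these 11 identifiers had a lower and 5 a higher share after CBL0137, with a median log2 ratio of -0.38. Ubxn6 had 760 and 1058 CPM (log2 ratio 0.48, counting interval 0.20 to 0.76) and Gm10143 2001 and 2576 CPM (0.36, 0.19 to 0.54). Zfp276 had 162 and 191 CPM (0.24, -0.38 to 0.89), and Pdzd11 had 232 and 128 CPM (-0.86, -1.44 to -0.26). So 3 of the 4 that fell in wild-type MEF had a ratio above 0 in the p53-/- pair, and the interval of Zfp276 reached 0. The median over 2275 identifiers of that pair was 0.16, so most of them also lay above 0. As the 4 were picked by their fall in wild-type MEF, this count is not read as a difference between the genotypes. In the test of the interaction none of the 19 tested identifiers of the 48 was called with edgeR or DESeq2, and the smallest adjusted p was 0.086 in edgeR. An unadjusted p below 0.05 was seen for 6 of the 19 with edgeR and 4 with DESeq2. Over all 2995 identifiers of the edgeR fit it was seen for 307. The number over all identifiers with DESeq2 was not counted, and these counts are not read as an excess. In lung, 7 of the 48 passed the filter, and with edgeR and DESeq2 none was called or had an unadjusted p below 0.05.

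Few of the listed cell-cycle genes passed the filter under their own identifiers, too few to set against their opposite identifiers, and no test of the difference was made. Members left out, 1 of 105 genes of G2 and mitosis passed the filter in wild-type MEF and was not called. Of the 92 genes of G1/S and DNA replication 12 passed, none fell and 1 rose, Gins2 (log2 fold change 1.30 ± 0.17, edgeR, adjusted p = 0.0171), a subunit of the GINS complex of the replication fork. Over all identifiers 4.27% were called lower and 4.21% higher. The identifier opposite Gins2, Gse1, stood at -1.67. The summed level of the G2 and mitosis list, partners included, was 1772 to 1870 CPM in untreated and 1657 to 1816 CPM in treated wild-type MEF. Much of this sum lay on the partners Ccna2 and Kif20a. Ccna2 had 394 and 438 CPM untreated and 666 and 820 CPM treated, and Kif20a 540 and 521 against 459 and 499 CPM. The sum therefore does not show how the other listed genes moved, and these were not summed apart from the partners. The summed level of the G1/S list was 5563 to 5574 CPM in untreated and 6481 to 7175 CPM in treated wild-type MEF. Among p53 targets 1 of 20 passed the filter and was not called, and among fibroblast markers 5 of 10 passed and Col3a1 fell (-2.17 ± 0.47, edgeR, adjusted p = 0.0497).

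Over the 10 libraries, each of Exosc9, Cdc23, Lcorl, Paqr4 and Kctd18 followed the mean log2 CPM of the other identifiers with a Pearson r of 0.918, 0.948, 0.936, 0.952 and 0.990, and Dnah11 with 0.639. The partners had r of 0.323 (Ccna2), 0.438 (Kif20a), 0.511 (Ncapg) and -0.198 (Pkmyt1). The libraries fall into few groups that also differ in tissue and depth, so these values describe the pattern only. Of 4376 other identifiers, the 5 most like the mean of the 6 were Gm14024 (r = 0.976), Mum1 (0.970), Pmch (0.969), Ptpre (0.962) and Hist1h1d (0.959). Gm14024 shared 181 exon bases on the other strand with Ckap2l, a spindle protein gene, and Pmch, which encodes a hypothalamic neuropeptide precursor, shared 435 with Parpbp. Ptpre shared 209 with the uncharacterized 5830432E09Rik, and Mum1 and Hist1h1d had no exon base opposite another exon. Gm14024 had 43.7 and 72.9 CPM in untreated and no count in treated wild-type MEF, and 133 and 55.7 CPM in p53-/- MEF. Pmch had 58.3 and 26.0 CPM in untreated and no count in treated wild-type MEF, and 81.2 and 42.7 CPM in p53-/- MEF.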

How the data were processed

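Ribosomal RNA was removed and strand-keeping libraries of total RNA were made (TruSeq Stranded kit). The submitters' processing notes name TopHat2 2.0.9, HTSeq and GRCm38 (mm10). The strand setting of the counting and the annotation release are not given in the sources used here. The authors deposited raw read counts for 38293 gene identifiers, not normalized. The 5 rows of each file that name no gene (98.8% to 99.2% of reads on no feature) were left out of library sizes and tests. Of the identifiers, 94.9% were in GENCODE M21, from which exons and strands were read.

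The main test was the quasi-likelihood test of edgeR 4.0.16 (R 4.3.3), run on wild-type MEF, on lung, and on all MEF for the interaction of genotype and CBL0137. Library sizes were scaled by TMM. Identifiers were kept by filterByExpr (count of 10, total of 15), and called at a Benjamini-Hochberg adjusted p below 0.05 over all identifiers of the fit. log2 CPM and fitted log2 fold changes used a prior count of 2. p53-/- MEF were given as ratios of shares with exact 95% counting intervals. A level of 3 counts was taken as the floor. Scripts were tested on simulated data. Alternatives tried were DESeq2 1.42.0, scaling by the upper quartile, library sizes without TMM or from all reads of the file, no filter, all 10 libraries in one fit, a prior count of 0.5, each replicate left out, and other rules of overlap. TMM factors for p53-/- MEF and the other fits for the opposite-strand identifiers were added after the data were seen.

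The members and the gene lists were chosen with earlier results of these data known. Genes named are the 10 members, the identifiers opposite listed cell-cycle genes that were called in wild-type MEF, the 5 identifiers most like the mean of the 6, Trp53, and the genes opposite a member. Identifiers of that list that were not called, Gins2, Col3a1 and the marker genes were named after their values were seen. Python 3.11.15 with pandas 2.3.3 and SciPy 1.17.1 served for all tables.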

Additional observations from a re-analysis of the deposited data

Results flagged for a closer look

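At 2 of the 6 identifiers CBL0137 moved the share in opposite directions in the genotypes, with both treated wild-type MEF libraries below both untreated ones and the treated p53-/- library above the untreated one. These were Kctd18, with a log2 ratio of 0.15 in p53-/- MEF against a 24.5-fold lower mean in wild-type MEF, and Paqr4, with a log2 ratio of 0.057 in p53-/- MEF and 0 counts in both treated wild-type libraries. The p53-/- counting intervals of both reached 0. Neither ratio was above the median of 0.16 over 2275 identifiers of that pair, and each treatment had 1 library. A rise in p53-/- MEF is therefore not shown for either. In the fit over all 6 MEF libraries the interaction of Kctd18 was called and that of Paqr4 was not (log2 values of 4.56 and 3.68), but this contrast chose these genes, and outside it the difference was not tested.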

How the results depend on the processing

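No paired analysis was possible because the labels give no replicate numbers and p53-/- MEF have 1 library per treatment. Most alternatives left the number of identifiers called in wild-type MEF (149) within 1.5 times, but DESeq2 called 57, and with 1 library left out the number ran from 0 to 254, with 2 and 0 without untreated replicate 1 and 2. With all reads as library size 71 were called lower and 127 higher, against 75 and 74, since this scale moved the median of all identifiers by 0.18 (log2). The interaction gave 3 calls, 1 with DESeq2, 6 without TMM, 6 with all reads as library size, 19 without the filter and 0 to 222 with 1 library left out. Lung gave 0 calls, 3 with all 10 libraries in one fit and 2 to 113 with 1 library left out, without vehicle replicate 1 or 2 and without CBL0137 replicate 1 or 2 giving 2, 5, 10 and 113. The causes were not tested. The 7 members tested in lung were not called in any of the 11 alternative fits of lung, and their direction in lung varied with the setting. The opposite-strand identifiers called in wild-type MEF (5) were 8 (6 lower, 2 higher, of 18 tested) when exons within 5 kb were counted too, 7 of 41 without the filter, and 0 to 5 with 1 library left out. The median log2 ratio of the 6 identifiers in p53-/- MEF (-0.32) turned to 0.091 with all reads as library size, which adds 0.41 to each ratio. In wild-type MEF the fitted values of the 6 identifiers stayed at -2.88 or lower under every alternative run, and 19 values of members moved by more than the replicate SD and 78 did not, the 19 being mostly those of Paqr4 and Dnah11, which had no treated counts (Paqr4 -6.25 with DESeq2). Depth limits the low identifiers most, since 3 counts are worth 5.57 to 181 CPM.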
